A study of Rattus norvegicus with 8 samples.

Results

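The Z-disc is the protein lattice that anchors actin filaments at both ends of a sarcomere, and 8 genes for its parts and partners were followed here through thyroid hormone excess: Csrp3, Ankrd2, Myoz2, Actn3, Myoz1, Actn2, Tcap and Fhl1. They were taken as every probe set whose only gene symbol in the platform annotation is 1 of these names, which gave 10 probe sets of 31099 on the array, 1 for each gene and 3 for Fhl1. All 10 passed the filter on low values that left 18625 probe sets. RNA came from the tibialis anterior, a largely fast muscle at the front of the shin, of 8 adult Sprague-Dawley rats of 200 ± 40 g at the start, 1 Affymetrix array per rat. The 4 hyperthyroid rats were treated for 6 weeks with intraperitoneal triiodothyronine (T3), the form of thyroid hormone that binds its nuclear receptors. The dose was 25 µg for each 100 g of body weight, 1 injection every 2 days, and the rats were killed 24 hours after the last. The 4 control rats were untreated, each group held 3 males and 1 female, and no allele or transgene is named. As the controls were not injected, the hormone and the injections cannot be told apart.

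Alpha-actinins cross-link actin in the Z-disc: Actn3 encodes the form of fast fibres, and Actn2 a form not limited to them. Myozenins, also called calsarcins, tie the phosphatase calcineurin to alpha-actinin, with Myoz1 in fast and Myoz2 in slow fibres and heart. Tcap encodes telethonin, which caps the end of titin. Csrp3 (muscle LIM protein), Ankrd2 (a muscle ankyrin repeat protein) and Fhl1 (a LIM-only protein) bind to the sarcomere and respond to stretch or load, and in adult limb muscle Csrp3 and Ankrd2 are known mainly from slow fibres. Thyroid hormone is known for shifting limb muscle from slow towards fast myosins. Csrp3, Ankrd2 and Myoz2 are called slow-linked below, and Actn3 and Myoz1 fast-linked.

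Promoter sequences were available for 6 of the 8 genes, from RefSeq (GRCr8), matched by symbol. Those of Ankrd2 and Myoz2, which varied together over the arrays, and of the fast-linked Myoz1, Actn3 and their partner Actn2 are shown as the 200 bases before the start of each gene, 5′ to 3′ on the gene's strand. The windows are chr1:250796219-250796418 (plus strand) for Ankrd2, chr2:213852779-213852978 (minus) for Myoz2, chr15:3693376-3693575 (plus) for Myoz1, chr17:62834855-62835054 (plus) for Actn2 and chr1:211604402-211604601 (minus) for Actn3. Capitals mark matches, on either strand, to a TATA box (TATAAA) or to the binding motif of the muscle factor MEF2.
Ankrd2: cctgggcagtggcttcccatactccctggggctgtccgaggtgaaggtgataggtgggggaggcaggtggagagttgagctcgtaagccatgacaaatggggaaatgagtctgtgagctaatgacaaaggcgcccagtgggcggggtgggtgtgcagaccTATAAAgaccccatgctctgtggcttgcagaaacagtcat
Myoz2: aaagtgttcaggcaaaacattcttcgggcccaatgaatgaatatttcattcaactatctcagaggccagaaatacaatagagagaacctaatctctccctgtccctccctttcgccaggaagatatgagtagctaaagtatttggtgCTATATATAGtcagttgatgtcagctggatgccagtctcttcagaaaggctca
Myoz1: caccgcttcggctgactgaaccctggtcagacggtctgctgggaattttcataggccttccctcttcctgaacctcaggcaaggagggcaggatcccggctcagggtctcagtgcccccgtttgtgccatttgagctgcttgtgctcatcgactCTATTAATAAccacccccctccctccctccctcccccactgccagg
Actn2: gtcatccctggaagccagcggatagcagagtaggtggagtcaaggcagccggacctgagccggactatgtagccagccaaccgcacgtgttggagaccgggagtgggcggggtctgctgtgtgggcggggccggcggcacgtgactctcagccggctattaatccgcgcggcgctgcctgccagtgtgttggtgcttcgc
Actn3: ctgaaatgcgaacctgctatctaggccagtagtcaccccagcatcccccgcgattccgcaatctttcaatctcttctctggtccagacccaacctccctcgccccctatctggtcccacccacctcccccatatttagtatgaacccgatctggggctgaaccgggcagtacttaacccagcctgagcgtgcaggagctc
Both myozenins held a MEF2 match, CTATATATAG in Myoz2 and CTATTAATAA in Myoz1, and 2.36% of 33469 promoter windows of this length held one. Ankrd2 held a TATA box, as did 10.4% of all windows. None of the 5 windows held the MCAT motif CATTCC (9.74% of all windows) or the nuclear receptor hexamer AGGTCA (11.4%). E boxes (CANNTG) were found 2 times each in Ankrd2, Myoz2 and Actn2 and 1 time in Myoz1, and 57.0% of all windows held at least 1. No matches overlapped each other. These are matches of letters and say nothing of binding.

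The values are intensities on a linear scale, scaled by the authors so that each array had the same trimmed mean (150.1 on every array). The mRNA was primed with oligo(dT), so a probe set reads the 3′ part of a transcript. The 6 skeletal muscle markers were Ckm, Acta1, Mb and the fast-fibre genes Tnnt3, Tnni2 and Mylpf. All but Mylpf, 5 in number, were on the array under a single symbol. Their summed intensity ran from 169322 to 207861 on hyperthyroid and from 222046 to 257084 on control arrays. That of 11 fast-fibre markers, which again include Tnnt3 and Tnni2, ran from 256463 to 332341 and from 328586 to 372987. Under the authors' scaling all 5 muscle markers had log2 fold changes below 0, with a median of -0.41. Each had an unadjusted limma p under 0.05. Of the 11 fast-fibre markers 9 were below 0, with a median of -0.32, and 5 had such a p, all lower. None of either list had an adjusted p under 0.05. Of all genes 50% were below 0, and 5.14% had such an unadjusted p and were lower. No heart marker (0 of 4) and not the extraocular muscle myosin Myh13 passed the filter. Control replicates 7 and 11 stood apart in slow-fibre transcripts: the 9 slow-fibre markers summed to at most 43863 over controls and at most 9156 over hyperthyroid arrays, with these 2 arrays the highest and hyperthyroid replicate 5 the lowest at 1538. All 9 had log2 fold changes below 0 (as had 50% of all genes), with a median of -2.72. An unadjusted limma p under 0.05 was seen in 7 (5.14% of all genes had one and were lower) and an adjusted one in none, and with robust variance none of the 9 had an unadjusted one. Without control replicates 7 and 11, 8 of the 9 passed the filter, 7 were below 0 with a median of -1.02 over the 8, and none had an unadjusted limma p under 0.05. Without hyperthyroid replicate 5 the median was -1.58. As these arrays were the extremes of the summed markers, a move of the median towards 0 was largely set by leaving them out. Results on the 8 genes are given below with and without these 3 arrays. Precision is limited throughout by having 4 arrays in each group.

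All 10 probe sets were lower on average in the hyperthyroid group, and none passed the test over all probe sets. The smallest limma adjusted p was 0.478, for Tcap. An adjusted p under 0.05 was reached by 0.0322% of all tested probe sets, 6 in number and all higher in the hyperthyroid group. Tcap and Myoz1, 2 of the 10, had an unadjusted limma p under 0.05. Among all probe sets 9.68% had one, 4.76% being lower and 4.91% higher. That number was 0 without hyperthyroid replicate 1, 1 without hyperthyroid replicate 3 or 5 or control replicate 7 or 8, and 4 without hyperthyroid replicate 2. A log2 fold change below 0 was seen in 50.8% of all probe sets, and one of -1 or lower in 3 of the 10 and in 3.53% of all. The groups overlapped for each of the 10, and did not overlap for 6.15% of all. The median log2 fold change of the 10 was -0.65, and that of all tested probe sets was -0.0077.

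**Figure D1:**
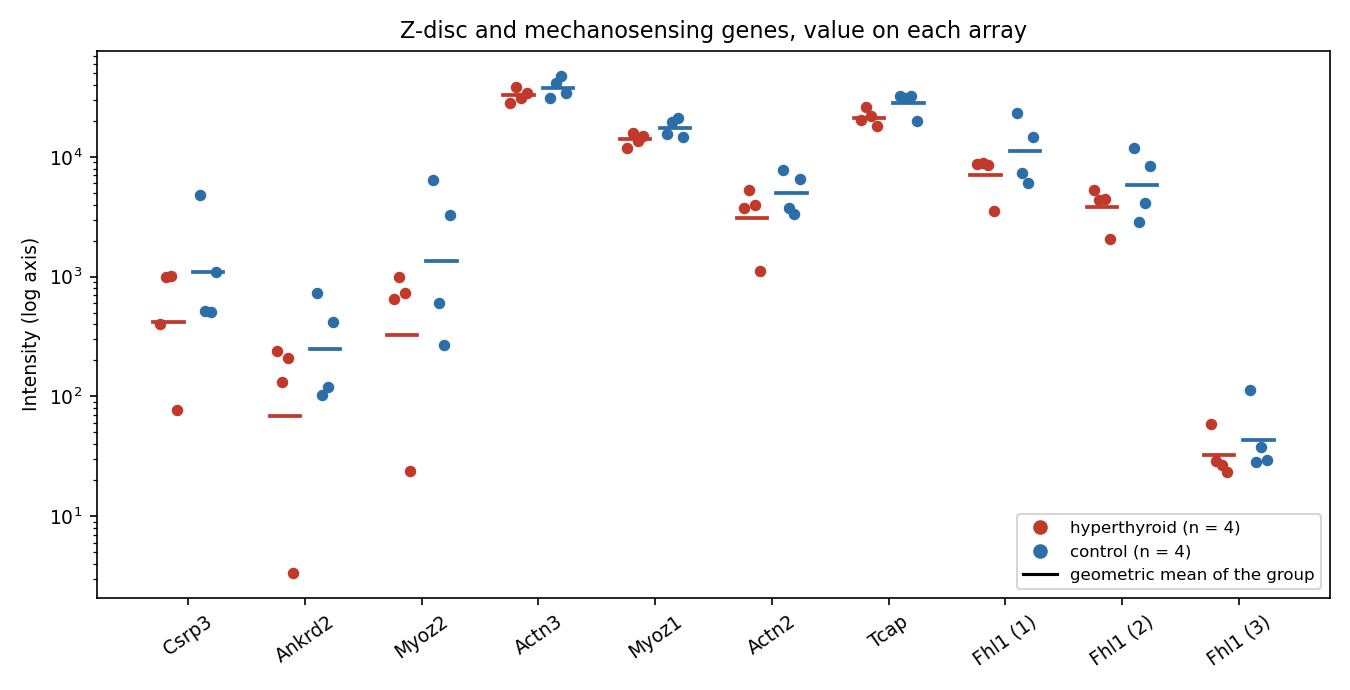
Intensity (log axis) of the 10 probe sets on each of the 4 hyperthyroid and 4 control arrays, with the geometric mean of each group as a line; Fhl1 (1) to (3) are its probe sets from the brightest to the dimmest. The groups overlap in every case, and 1 hyperthyroid array lies far below the others for Ankrd2 (3.37) and Myoz2 (24.0).

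The slow-linked genes had the largest average differences of the 8 and the widest spread. Myoz2, which encodes calsarcin-1, had intensities of 647, 989, 725 and 24.0 on hyperthyroid replicates 1, 2, 3 and 5. On control replicates 7, 8, 9 and 11 it had 6430.5, 599, 269.7 and 3289. Replicates 7 and 11 were thus above every hyperthyroid array, replicates 8 and 9 lay within the hyperthyroid range, and hyperthyroid replicate 5 was below all the rest. The means were 596 ± 409 in hyperthyroid and 2647 ± 2862 in control muscle (SD, n = 4 each). The log2 fold change was -2.02 ± 1.07 (standard error, 95% interval -4.32 to 0.28, limma adjusted p = 0.571), a level 4.06-fold lower that was not distinguishable from the spread between animals.

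Csrp3, muscle LIM protein, had intensities of 399, 991, 1009.8 and 76.5 on hyperthyroid replicates 1, 2, 3 and 5. Its control values were 4812, 517, 508 and 1101 on replicates 7, 8, 9 and 11. Control replicate 7 alone was far above the rest, and control replicate 11 exceeded the highest hyperthyroid array by a small margin. The means were 619 ± 459.8 and 1734 ± 2070.3 (SD, n = 4 each), with a log2 fold change of -1.36 ± 0.77 (95% interval -3.02 to 0.29, limma adjusted p = 0.597). Ankrd2, the stretch-responsive ankyrin repeat protein, had 239, 132, 208 and 3.37 on hyperthyroid replicates 1, 2, 3 and 5. It had 727, 102, 119 and 418 on control replicates 7, 8, 9 and 11. The 2 low control arrays lay below 3 of the 4 hyperthyroid arrays, control replicates 7 and 11 lay above all 4, and hyperthyroid replicate 5 lay below every other array. The means of Ankrd2 were 146 ± 105 and 342 ± 295 (SD, n = 4 each), and its log2 fold change was -1.60 ± 0.94 (95% interval -3.63 to 0.42, limma adjusted p = 0.608). The value of 3.37 lies under the level of 22.4 that the filter corresponds to, so the fold change of Ankrd2 depends on how so low a value is treated. In tissue RNA, fewer fibres that hold these transcripts, of whatever type, and less of these transcripts per fibre cannot be told apart.

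The spread of the slow-linked genes between animals of 1 group was wide for this array. Over the controls the SD of log2 values was 2.11 for Myoz2, 1.52 for Csrp3 and 1.36 for Ankrd2, against a median of 0.43 over all tested probe sets. Over the hyperthyroid arrays the SDs were 2.43, 1.72 and 2.43, against a median of 0.36. Among all tested probe sets the SD over controls lay at percentile 99.9 for Myoz2, 96.0 for Csrp3 and 93.0 for Ankrd2, and that over the hyperthyroid group at 99.9, 99.5 and 99.9. From the lowest to the highest array Myoz2 differed 23.8-fold within controls and 41.3-fold within the hyperthyroid group. The limma standard errors given above are drawn towards the usual spread of probe sets, and are smaller than these genes alone would give. With robust variance they were 1.58 for Myoz2, 1.12 for Csrp3 and 1.36 for Ankrd2.

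Of the genes called neither slow-linked nor fast-linked, Actn2, the other alpha-actinin, had intensities of 3774, 5305, 3936 and 1119.7 on hyperthyroid replicates 1, 2, 3 and 5. It had 7731, 3740.3, 3312 and 6590.0 on control replicates 7, 8, 9 and 11. Means were 3534 ± 1749.7 and 5343 ± 2157 (SD, n = 4 each). The order of the 8 arrays was that of Myoz2, with control replicates 7 and 11 at the top and hyperthyroid replicate 5 at the bottom. For Actn2 the log2 fold change was -0.71 ± 0.40 (95% interval -1.56 to 0.15, limma adjusted p = 0.594). Fhl1, whose product takes part in muscle growth and in human reducing body myopathy, had 8800.4, 8922, 8604 and 3545 on hyperthyroid replicates 1, 2, 3 and 5 in its brightest probe set. There it had 23068, 7368, 6090.5 and 14729 on control replicates 7, 8, 9 and 11. Again control replicates 7 and 11 exceeded the hyperthyroid arrays and replicates 8 and 9 did not. Its log2 fold change was -0.67 ± 0.38 (limma adjusted p = 0.598). The second probe set gave -0.62 ± 0.38 (limma adjusted p = 0.618), with 5288, 4345, 4427 and 2066 against 11948, 2887, 4133 and 8324 on the same arrays in the same order. The dimmest, with intensities from 23.2 to 113, gave -0.40 ± 0.53 (limma adjusted p = 0.836).

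Tcap, telethonin, followed another order. Its intensities were 20182, 26065, 21791 and 17942 on hyperthyroid replicates 1, 2, 3 and 5, against 31938, 30862, 32519.5 and 19898 on control replicates 7, 8, 9 and 11. The first 3 controls were close to each other and above every hyperthyroid array, whereas control replicate 11 was below 3 of the 4 hyperthyroid arrays. The means were 21495 ± 3431 and 28804 ± 5977 (SD, n = 4 each). Its log2 fold change was -0.41 ± 0.17 (95% interval -0.78 to -0.04, limma adjusted p = 0.478). Without control replicate 11 it was -0.58 ± 0.14 (limma adjusted p = 0.348). As replicate 11 was the lowest control, a move away from 0 was fixed by leaving it out.

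The fast-linked genes varied little. Actn3, the alpha-actinin of fast fibres, had 28385, 38213, 31088 and 34365 on hyperthyroid replicates 1, 2, 3 and 5. It had 31134, 41025, 47719 and 33886 on control replicates 7, 8, 9 and 11. Control replicates 8 and 9 were the highest arrays and replicates 7 and 11 lay within the hyperthyroid range, whereas replicates 7 and 11 had been the high ones in Myoz2. Means were 33013 ± 4242 and 38441 ± 7459 (SD, n = 4 each). The log2 fold change was -0.21 ± 0.15 (95% interval -0.54 to 0.12, limma adjusted p = 0.689). Myoz1, calsarcin-2, had 11888, 15847, 13653 and 14866 on the hyperthyroid arrays and 15589, 19656, 20962 and 14709 on the control arrays, in the same order. Control replicates 8 and 9 were again the highest. The means were 14063 ± 1705 and 17729 ± 3048 (SD, n = 4 each). Its log2 fold change was -0.33 ± 0.15 (95% interval -0.64 to -0.01, limma adjusted p = 0.499). The SD of log2 values within groups was between 0.18 and 0.28 for these 2 genes.

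**Figure D2:**
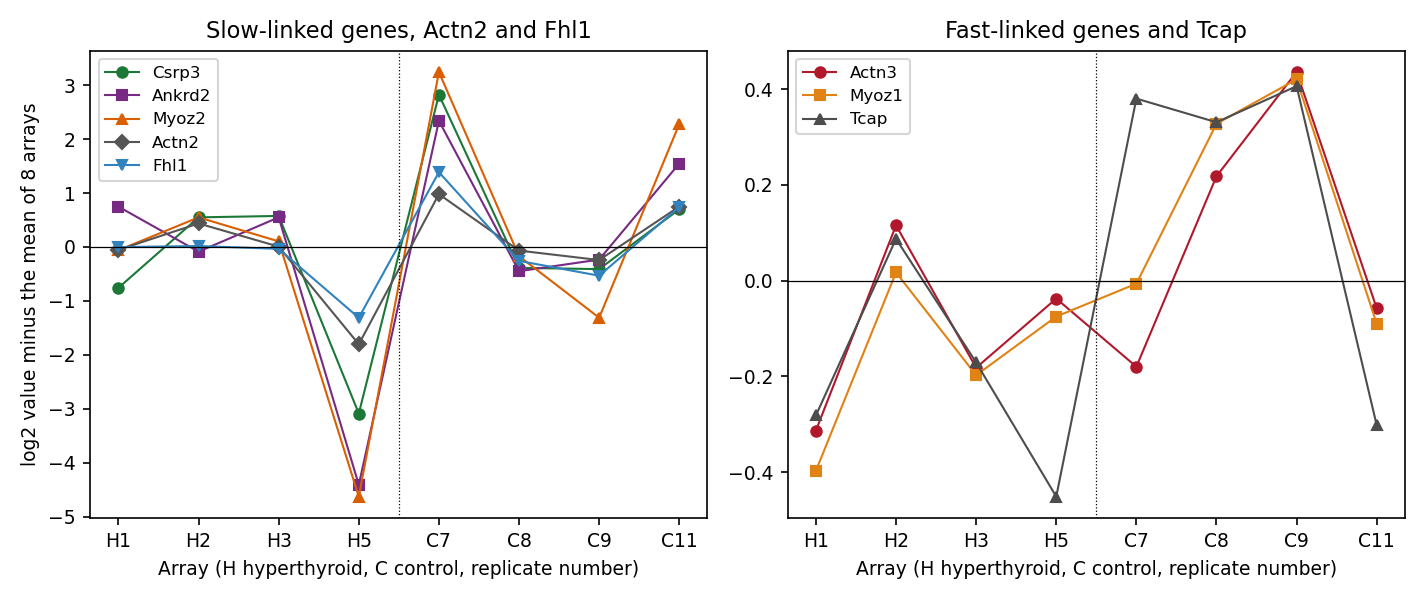
Log2 value of each gene's brightest probe set minus its mean over the 8 arrays, for hyperthyroid (H) and control (C) replicates; the scales of the panels differ. The left panel shows control replicates 7 and 11 high and hyperthyroid replicate 5 low in 5 genes, and the right panel shows Actn3 and Myoz1 highest on control replicates 8 and 9.

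Actn3, Myoz1 and Tcap were among the 100 brightest probe sets on all 8 arrays, and the brightest transcripts as a whole held less of the signal in the hyperthyroid group. Those 100 held 22.6 ± 1.18% of it in the hyperthyroid group, against 26.6 ± 0.880% in controls (SD, n = 4 each). The two-sided exact permutation p was 0.0286, which no comparison of 4 with 4 can go below. Over the 173 probe sets with a mean log2 value of at least 13, the median log2 fold change was -0.19. Quantile normalization, which gives every array the same distribution of values, set that median to 0.0034 and gave 0.19 for Actn3, -0.087 for Myoz1 and -0.14 for Tcap. Centring on array medians gave 0.012, -0.11 and -0.19, and scaling to the hybridization controls gave 0.11, -0.0063 and -0.088 for the same genes. Under these 2 scalings the median of all tested probe sets was 0.21 and 0.31, and the 3 genes lay below it. The part of the share of bright signal in the values of these genes was not tested. The slow-linked genes were below 0 under each scaling, from -1.04 to -2.03.

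Without hyperthyroid replicate 5 the log2 fold changes were -0.81 ± 0.79 for Myoz2, -0.56 ± 0.62 for Csrp3, -0.40 ± 0.55 for Ankrd2 and -0.23 ± 0.26 for Actn2 (limma adjusted p from 0.796 to 0.867). Without control replicates 7 and 11, the arrays known from earlier results to be rich in slow-fibre transcripts, they were -0.27 ± 1.12, -0.28 ± 0.79, -0.46 ± 1.13 and -0.20 ± 0.46. The brighter probe sets of Fhl1 then lay above 0, at 0.062 and 0.14. For all of these probe sets hyperthyroid replicate 5 was the lowest array and control replicates 7 and 11 the highest. A rise of the fold change was thus fixed by the choice of arrays, and only its size was open. Without control replicate 7 alone the values were -1.27 for Myoz2, -0.65 for Csrp3, -1.09 for Ankrd2, -0.50 for Actn2 and -0.32 and -0.28 for the brighter probe sets of Fhl1, and 0.028 for its dimmest. The fast-linked genes and Tcap were further from 0 without control replicates 7 and 11, with -0.43 ± 0.15 for Actn3, -0.54 ± 0.15 for Myoz1 and -0.57 ± 0.16 for Tcap (limma adjusted p = 0.488, 0.380 and 0.383). These arrays were the lowest controls for Actn3 and Myoz1, so that move too was fixed by the choice of arrays. For Tcap it was largely set by leaving out control replicate 11, its lowest control.

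**Figure D3:**
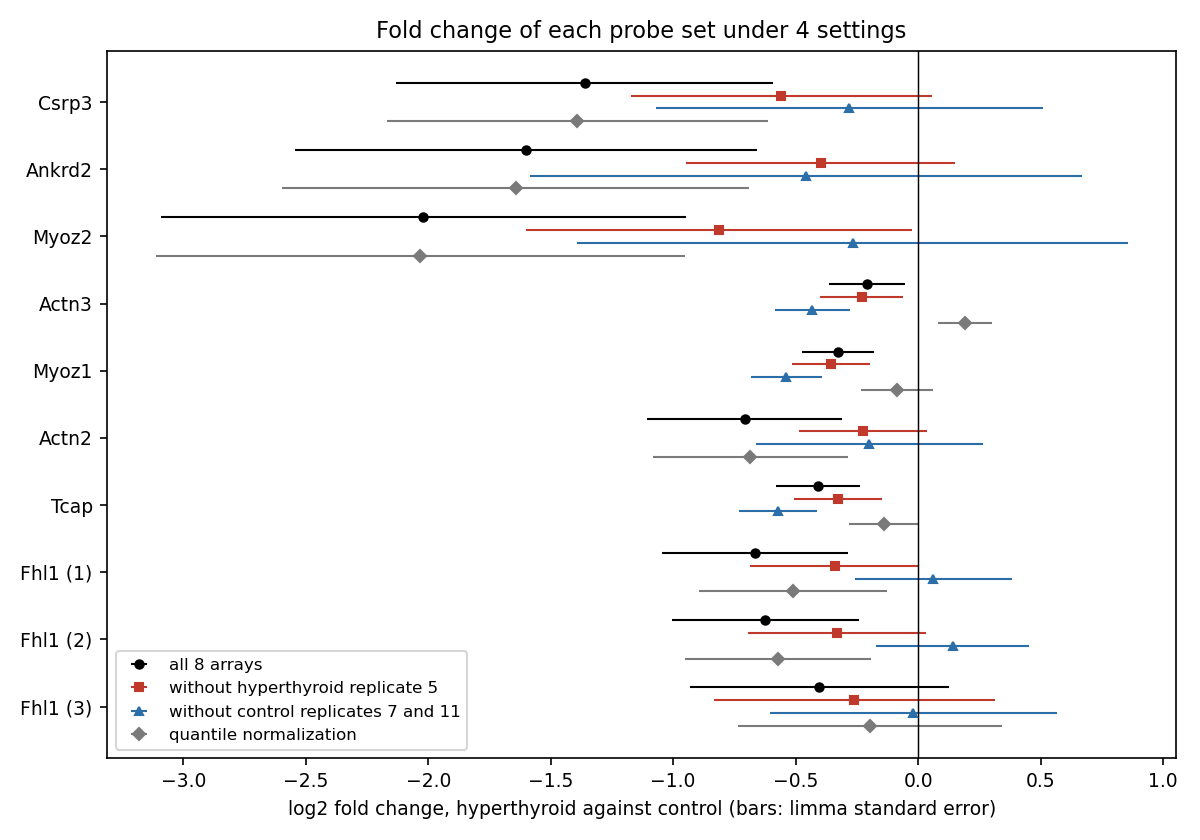
Log2 fold change of hyperthyroid against control for each probe set with limma's standard error as bars, from all 8 arrays, without hyperthyroid replicate 5, without control replicates 7 and 11, and after quantile normalization. Csrp3, Ankrd2 and Myoz2 move towards 0 when either set of arrays is left out, as they must, since these are their lowest hyperthyroid and highest control arrays. Actn3, Myoz1 and Tcap move towards 0 or past it after quantile normalization.

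Both pairs of related genes were then compared within each array, since the difference of log2 values between a slow or general form and its fast partner is not altered by a scaling of the whole array. For Myoz2 minus Myoz1 the difference was -4.19, -4.00, -4.23 and -9.08 on hyperthyroid replicates 1, 2, 3 and 5. It was -1.28, -5.03, -6.26 and -2.16 on control replicates 7, 8, 9 and 11. Replicates 1, 2 and 3 of the hyperthyroid group were close together, between the higher and the lower controls. The group means of -5.38 ± 2.47 and -3.68 ± 2.35 (SD, n = 4 each) differed by -1.69 (exact permutation p = 0.429, two-sided, 0.514 adjusted over the 2 pairs). For Actn2 minus Actn3 the differences were -2.91, -2.85, -2.98 and -4.94 against -2.01, -3.45, -3.85 and -2.36 on the same arrays. Their means differed by -0.50 (exact permutation p = 0.514, two-sided, 0.514 adjusted). No unequal change of the members of either pair was detectable with 4 rats per group.

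**Figure D4:**
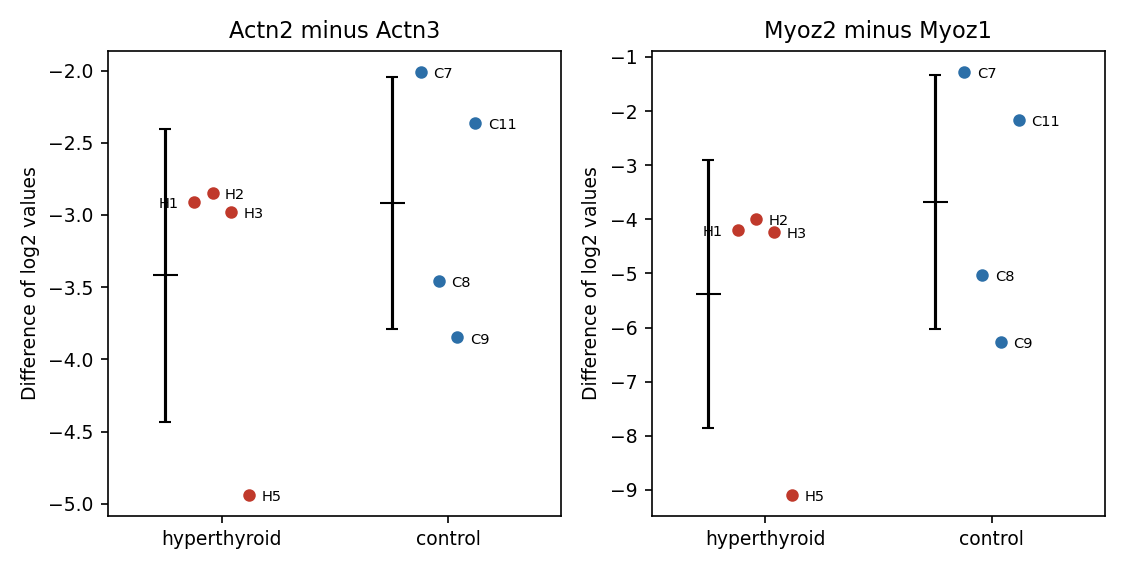
Difference of log2 values between paralogues on each array (points, with H or C and the replicate number) with the group mean ± SD beside them. In both panels control replicates 7 and 11 are highest, hyperthyroid replicate 5 is lowest, and the other 5 arrays lie between them.

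The slow-linked genes were set against 10199 other genes by the root mean square difference of their log2 values over the 8 arrays, each centred on its own mean. This measure weighs the size of differences between arrays as well as their order, and has no test. A gene with the same value on every array would lie at 2.21 from Myoz2, 1.89 from Ankrd2 and 1.56 from Csrp3. Of all genes, the nearest to Myoz2 was Ankrd2 (0.698), and Csrp3 lay at 0.909 from it. Of genes outside the 8, the 4 nearest to Myoz2 were Myl3, the slow myosin light chain (0.884), Myh2, the heavy chain of fast oxidative fibres (0.906), Tubb2b, a tubulin (0.985), and Ldhb, the lactate dehydrogenase subunit of oxidative muscle (1.10). Those nearest to Csrp3 were Lmcd1, a LIM domain protein of muscle (0.652), Tubb2b (0.669), Sstr3, a somatostatin receptor (0.677), and Myh2 (0.751). Tubb2b and Sstr3 had intensities of at most 170 and 83.1. On hyperthyroid replicate 5 they had 3.18 and 2.20, under the filter level of 22.4. Those nearest to Ankrd2 were Myh2 (0.681), Lmod2, a leiomodin that acts on thin filaments (0.946), Nrm (0.948) and Lgi4 (0.954), the latter 2 at intensities of at most 73.8.

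Myh2 was thus in the list of all 3 genes, and it shared the low value of hyperthyroid replicate 5. Its intensities were 13701, 25518, 13325 and 903 on hyperthyroid replicates 1, 2, 3 and 5, and the controls in their order had 35301, 16582, 10967 and 30699.7. Myh7, the slow myosin heavy chain, lay further away by this measure, at 2.02 from Myoz2, 2.22 from Ankrd2 and 2.40 from Csrp3. Myh7 was thus further from Ankrd2 and Csrp3 than a gene with the same value on every array (1.89 and 1.56). Its log2 fold change was larger, at -4.41, but its highest arrays were also control replicates 7 and 11 and its lowest hyperthyroid replicate 5. Myh7 had 169, 45.2, 5.96 and 5.83 on hyperthyroid replicates 1, 2, 3 and 5, and the controls in their order had 5569.7, 56.0, 163 and 2692. On hyperthyroid replicates 3 and 5 it was at the same low level, whereas Csrp3 was 1009.8 on replicate 3 and 76.5 on replicate 5, and Ankrd2 was 208 and 3.37. Of other slow-fibre genes, Tnni1, the slow troponin I, had 76.2 and 74.8 on these 2 arrays, and Atp2a2, the slow calcium pump, had 313 and 273. Myl3, by contrast, had 1782 and 22.8, and Myl2, the slow regulatory light chain, had 309.9 and 1.33, the last under the same level.

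Markers of other cells moved in part with the slow-linked genes. Of 6 listed Schwann cell markers 4 had values, and their summed intensity ran from 164 to 233 on hyperthyroid and from 118 to 659 on control arrays, with control replicate 7 the highest. The 3 that passed the filter went both ways, with log2 fold changes of -1.67, -0.19 and 0.46, and the last of them alone gave 387 of the sum on control replicate 7. That of the 4 smooth muscle markers ran from 711 to 833 and from 840.1 to 1454, again highest on control replicates 7 and 11. The part of these cells in the results was not tested. For endothelium (3 of 4 markers measured), fibroblasts (4 of 4), macrophages (4 of 4) and adipocytes (3 of 3) the ranges overlapped, and control replicate 11 but not control replicate 7 was among the 2 highest arrays. Hyperthyroid replicate 5, the array with the lowest slow-linked values, was the highest for fibroblasts and the second for macrophages, and it had 7416 for the collagen gene Col1a1 against 293 to 592 on the other hyperthyroid arrays. The part of these cells in its values was not tested. The ranges on hyperthyroid and control arrays were 357 to 744 and 366 to 597 for endothelium and 3738 to 19972 and 2186 to 16644 for fibroblasts. They were 164 to 553 and 195 to 761 for macrophages, and 1189 to 2550.4 and 1167 to 2246 for adipocytes.

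Other structural genes of the Z-disc did not pass the test, and the number below 0 depended on the scaling. Of 24 listed genes 22 were measured, and none had a limma adjusted p under 0.05 (0.0490% of all genes did). The log2 fold change was below 0 for 16 of the 22 (50% of all genes), and at an unadjusted limma p under 0.05 there were 8 lower (5.14% of all genes) and 1 higher (5.29%). The 8 became 5 without hyperthyroid replicate 2 or control replicate 7, 4 without hyperthyroid replicate 3, 3 without control replicates 7 and 11, and 4 without a variance trend. The median was -0.19, against -0.00029 for all genes. It was -0.10 without control replicate 7. Centred on array medians the median of the list was 0.030, with 10 of 22 below 0, and scaled to the hybridization controls it was 0.13, with 8 of 22 below 0. Under each of these 2 scalings 2 genes were lower and 2 higher at that unadjusted p. Both lay below the median of all probe sets under these scalings, 0.21 and 0.31.

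Pdlim1, a PDZ and LIM protein bound to alpha-actinin, had 198, 142, 221 and 204 on the hyperthyroid arrays, in the order used above, and 567, 264, 255 and 634 on those of the controls. Its groups did not overlap, and replicates 7 and 11 were again the highest. The log2 fold change was -1.05 ± 0.29 (limma adjusted p = 0.289), and without those 2 arrays it was -0.45 ± 0.24 (limma adjusted p = 0.634). Myot, myotilin, a filamin and alpha-actinin binding protein, also had groups that did not overlap, with 11386 to 13476 in hyperthyroid and 14721 to 17813 in control muscle, at -0.38 ± 0.12 (limma adjusted p = 0.332). Cryab, the small heat shock protein that guards desmin and the Z-disc, was at 11584, 9874, 5761 and 4312 on the hyperthyroid arrays and at 15904, 11114, 11585 and 15294 on the control arrays, with -0.87 ± 0.26 (limma adjusted p = 0.306). Pdlim3, the actinin-associated LIM protein, gave -0.53 ± 0.18 (limma adjusted p = 0.379), and its highest control arrays were replicates 9 (12513) and 8 (10157), as for Actn3. Under quantile normalization Pdlim1 had -1.10, Cryab -0.71, Pdlim3 -0.43 and Myot -0.18, and scaled to hybridization controls they had -0.73, -0.55, -0.21 and -0.063.

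Titin-linked and mechanosensing genes did not pass the test either, and the number below 0 again depended on the scaling. Of 26 listed, 22 were on the array and 21 passed the filter, Dmd not. None had a limma adjusted p under 0.05, and 2 had an unadjusted one, Itgb1bp2 and Smpx, both lower (5.14% of all genes were lower at that p and 5.29% higher). Scaled to hybridization controls 0 were lower and 4 higher, and centred on array medians or without a variance trend there were 0 in either direction. The log2 fold change was below 0 for 15 of the 21 (50% of all genes), with a median of -0.07. Centred on array medians 8 of 21 were below 0, with a median of 0.155, and scaled to hybridization controls 6 of 21, with a median of 0.25. With 1 array left out it ran from -0.17 (without control replicate 11) to 0.014 (without hyperthyroid replicate 1). Itgb1bp2, melusin, a muscle chaperone that binds integrin, had -0.48 ± 0.19, and Smpx, a small muscle protein linked to stretch, had -0.35 ± 0.14 (limma adjusted p = 0.456 and 0.461). Without control replicates 7 and 11 they had -0.16 and -0.17, and scaled to hybridization controls -0.16 and -0.030. Csrp1, a relative of Csrp3, had -0.53 ± 0.26, and Capn3, the titin-bound protease, had -0.29 ± 0.16 (limma adjusted p = 0.535 and 0.573). Of the relatives of Ankrd2 on hyperthyroid replicate 5, Ankrd1 had 73.0 there and 90.5 to 94.2 on the other hyperthyroid arrays, and Ankrd23 had 4494 there and 3512 to 5913 on the others. Another probe set of Ankrd1 gave -1.53 ± 0.53, against -0.41 ± 0.30 for the brightest. In the 2 structural lists, other probe sets differed in sign from the brightest for Actn1 and Vcl only. Actn1, counted above among the 8 lower, had 1.30 ± 0.71 against -0.61 ± 0.24, and Vcl had 0.20 and 0.49 against -0.27. Pdlim5 differed in size, with -1.88 ± 0.68, -1.80 ± 0.73 and -0.80 ± 0.58 against -0.22 ± 0.16.

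**Figure D5:**
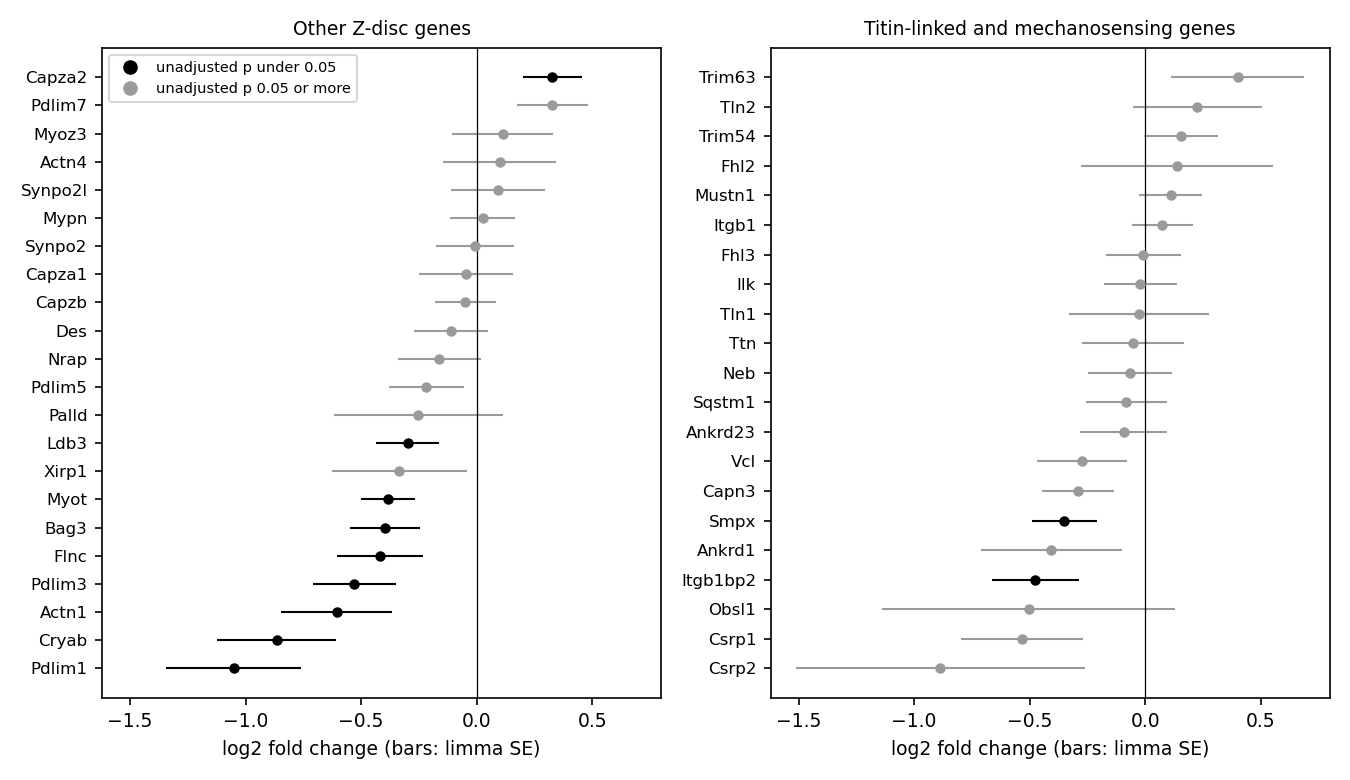
Log2 fold change of hyperthyroid against control with limma's standard error for the brightest probe set of the 22 other Z-disc genes and the 21 titin-linked and mechanosensing genes. Points are black where the unadjusted p is under 0.05. Under the authors' scaling 16 of 22 Z-disc genes lie below 0, from Pdlim1 at -1.05 to Capza2 at 0.33, and no gene in either panel passed after adjustment.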

How the data were processed

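Biotin-labelled cRNA of 8 rat muscles was hybridised to 1 Affymetrix array each. The authors deposited intensities on a linear scale; GCOS is named in the submitters' processing notes, with its version and settings not given in the sources used here. Equal trimmed means (2% left out at each end) show scaling to 1 target per array.

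All tests used log2(intensity + 3.41), where 3.41 is the 10th percentile of all intensities, so fold changes of low transcripts are understated. Of 31099 probe sets, 57 controls were left out, and those with a mean above the 40th percentile (4.69, an intensity of about 22.4) were kept. Each was tested with limma 3.58.1 in R 4.3.3 (lmFit, eBayes with a variance trend, two-sided), with Benjamini-Hochberg adjustment over 18625 probe sets. For a gene with several probe sets the one with the highest mean represents it. In simulated data of these arrays, 24 of 100 changes of 1 and 53 of 100 of 2 on the log2 scale were called for this comparison. Another 6 probe sets without a change were called too. The changes were put on probe sets drawn at random, with independent normal noise. The slow-linked genes had a wider spread than most probe sets, so these shares do not apply to them. Paralogue differences were compared by exact permutation over 70 assignments. Which arrays are from females is not in the labels, and extraocular muscle of the same rats was not analysed here.

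A platform annotation named 20826 probe sets with 1 gene symbol, 436 had several and 9780 none; Entrez identifiers of all 10 probe sets matched the same symbol in RefSeq. The 8 genes, the lists and the arrays left out were chosen with earlier results of these data known. Named were the 8 genes, the 4 nearest genes of each slow-linked gene, 5 slow-fibre references and up to 4 genes per structural list with the smallest p. Ankrd1, Ankrd23, Capza2, Col1a1, Actn1, Vcl and Pdlim5 were named after their values were seen. Alternatives were other scalings, pseudocounts, filters, variance models, probe set summaries, thresholds and arrays left out. Limma p-values and standard errors rest on the spread between these rats, drawn towards that of all probe sets at a similar level. Permutation p-values rest on these rats alone.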

Additional observations from a re-analysis of the deposited data

Results flagged for a closer look

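Within groups of 4, a sample was marked when its gap to the nearest other, as a share of the group's range of log2 values, passed Dixon's 95% limit, which chance gives in about 1 of 20 groups. Among all tested probe sets 6.53% of hyperthyroid and 6.37% of control groups were marked, and of the 24 groups examined here 6 were. Hyperthyroid replicate 5 was marked as the lowest of its group for Ankrd2 (intensity 3.37), Myoz2 (24.0) and the brightest probe set of Fhl1 (3545). The same array was marked in both differences between paralogues, at -4.94 for Actn2 minus Actn3 and -9.08 for Myoz2 minus Myoz1, and these share their values with the single genes. Control replicate 11 was marked as the lowest control for Tcap (19898).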

How the results depend on the processing

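No probe set of the 8 genes passed under any of 21 settings. The number with an unadjusted limma p under 0.05 was 2. It was 0 after quantile normalization, median centring, scaling to hybridization controls or without a variance trend, 1 without a filter, and 0 to 4 with 1 array left out. Actn3 turned to 0.19, 0.012 and 0.11 under the 3 scalings. Without control replicates 7 and 11, Fhl1 turned to 0.062 and 0.14, Actn2 minus Actn3 to 0.23 and Myoz2 minus Myoz1 to 0.27. With 1 array left out Actn2 minus Actn3 ran from -0.81 to 0.0054 (without hyperthyroid replicate 5), Myoz2 minus Myoz1 from -2.55 to -0.46, and the dimmest probe set of Fhl1 from -0.67 to 0.028. Capn3 turned to 0.027 under scaling to hybridization controls. The list medians turned to 0.030 and 0.155 under median centring and to 0.13 and 0.25 under hybridization controls, and that of the titin-linked genes ran from -0.17 to 0.014 with 1 array left out. Over the whole array 6 probe sets were called. There were 19 with median centring, 118 with hybridization controls, 16 with no filter, 0 without a trend, 22 with robust variance, 10 with array weights, 1 with averaged probe sets, 1 without control replicates 7 and 11, 1 at 0.01, 11 at 0.1, and 0 to 5 with 1 array left out. The cause of these differences was not tested. The dimmer Fhl1 probe sets gave no value with 1 value per gene, and the dimmest none under the stricter filter. No paired analysis was possible because the groups share no replicate numbers. Few arrays, and low signal for Ankrd2 and the dimmest Fhl1 probe set, limit what could be seen.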
